A study of Mus musculus with 4 samples.

Results

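The 10 genes described here encode the steps by which a cell takes up glucose and commits it to glycolysis: 2 glucose transporters (Slc2a1, Slc2a3), 2 hexokinases (Hk1, Hk2), glucose phosphate isomerase (Gpi1), 3 phosphofructokinases (Pfkl, Pfkm, Pfkp) and 2 enzymes that set the level of fructose 2,6-bisphosphate (Pfkfb3, Pfkfb4). They were taken by gene symbol from a deposited table of read counts for 27179 genes, and all 10 were present in it. The cells were B16F10, a mouse melanoma line labelled wild type. One group of 2 libraries came from cells given ozonated olive oil, an oil treated with ozone, which attacks the double bonds of its unsaturated fats. The other group of 2 libraries came from cells given plain olive oil. Both oils were used at 0.01% for 6 h in serum-containing medium, so the cells of both groups received an oil, and an oil-free control was not analysed here. Nothing in the labels tells whether the 2 libraries of a group are separate cultures, so a p-value measures the spread between these libraries alone, which may be technical.

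Glucose enters most cells through transporters of the SLC2A (GLUT) family and is trapped inside by a hexokinase, which adds a phosphate. Glucose phosphate isomerase turns the product into fructose 6-phosphate, and phosphofructokinase makes the first step that is particular to glycolysis. The PFKFB enzymes make and break fructose 2,6-bisphosphate, the strongest known activator of phosphofructokinase, and the isozymes of a step differ in regulation and in the tissues that use them. Tumour cells, melanoma among them, are known for high glucose uptake. SLC2A1, HK2, PFKFB3 and PFKFB4 are among the genes known to be induced by the hypoxia-inducible factor HIF in human and mouse cells.

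Total counts were 22766948 and 30038784 in the ozonated oil libraries and 22539486 and 23377947 in the plain oil libraries. The ribosomal RNA precursor gene Rn45s took 0.383% and 1.10% of counts with ozonated oil and 0.249% and 0.386% with plain oil, so ozonated oil library 2 stood apart, and the part of this in the results was not tested beyond leaving that library out. The 7 melanocyte markers checked (Pmel, Tyr, Mlana, Dct, Tyrp1, Mitf and Sox10) were all present, with a summed level of 21900 and 24328 CPM (read counts scaled to a common library total) with ozonated oil and 20461 and 25156 CPM with plain oil. Of these 7, 2 were lower and 0 higher with no overlap between the groups, against 20.0% and 19.9% of all tested genes. The 2 were Mitf, the transcription factor of the melanocyte lineage (log2 change -1.10, SE 0.24, edgeR adjusted p = 0.254), and Sox10 (log2 change -0.28, SE 0.19, edgeR adjusted p = 0.724). The groups overlapped for Pmel, Tyr, Mlana, Dct and Tyrp1, with log2 changes of 0.37, -0.0037, 0.067, 0.20 and -0.035. Of 4 leukocyte markers, 3 had no count in any library, and the 5 fibroblast markers summed to 5.62 and 5.53 CPM with ozonated oil and to 8.21 and 7.53 CPM with plain oil. The 4 keratinocyte markers summed to 0.922 and 17.8 CPM with ozonated oil and to 25.5 and 3.51 CPM with plain oil, so ozonated oil library 2 and plain oil library 1 held most of this trace. The part of this trace in the results was not tested.

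Levels below are CPM after TMM scaling of the library sizes (the trimmed mean of M-values), and each change is a log2 fold, ozonated over plain oil, with its standard error (SE). The two-sided quasi-likelihood test of edgeR was fitted to 12675 genes, and p-values were adjusted over all of them by Benjamini-Hochberg at a threshold of 0.05. In bulk RNA, fewer cells that use a gene and less RNA per cell cannot be told apart. None of the 10 genes passed the adjusted threshold in edgeR, where percent called over all tested genes was 0. The members and lists were chosen with earlier results of these data known, so counts beside shares of all tested genes, here and below, are descriptions. At an unadjusted p under 0.05 there were 5 members, against 9.82% of all tested genes. Of these, 4 were higher with ozonated oil (Slc2a1, Hk2, Pfkl and Pfkp), against 4.54%, and 1 was lower (Pfkfb3), against 5.29%. The Wald test of DESeq2, run as an alternative, called 3 members, all higher (Hk2, Slc2a1 and Pfkl), where it called 2.14% of all genes in either direction.

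The libraries of a group did not overlap with those of the other for 8 of the 10 genes, against 40.0% of all tested genes. For 6 genes each ozonated oil library was above each plain oil library (Slc2a1, Hk2, Gpi1, Pfkl, Pfkm and Pfkp), against 19.9% of tested genes. For 2 genes each was below (Slc2a3 and Pfkfb3), against 20.0%. With no scaling factors the libraries of Pfkm overlapped as well, which left 7 genes. The median log2 change of the 10 genes was 0.37, against 0.035 over all tested genes. Together the 10 genes took 0.365% and 0.297% of all counts with ozonated oil and 0.151% and 0.200% with plain oil.

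**Figure D1:**
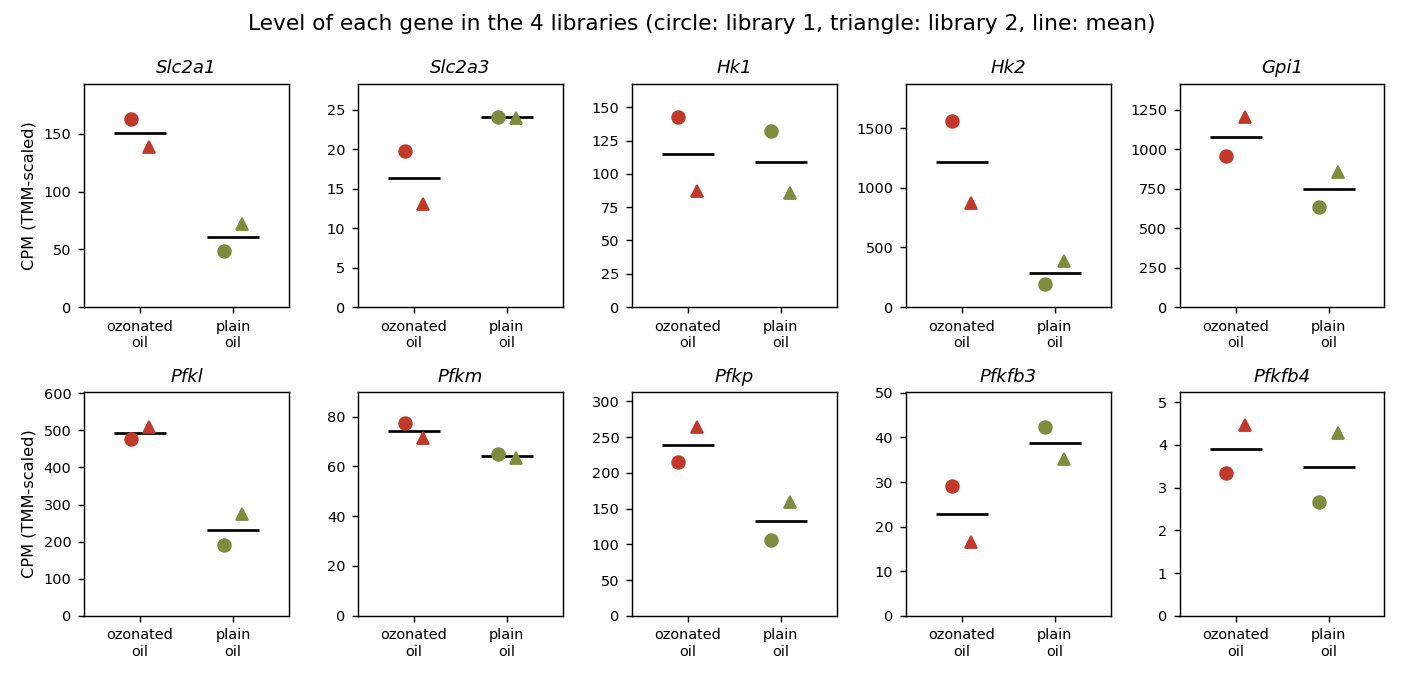
Level of each gene (vertical axis, TMM-scaled CPM, starting at 0) in the ozonated oil libraries (red, left) and the plain oil libraries (green, right); circles are library 1, triangles library 2 and lines the means. Slc2a1, Hk2, Pfkl and Pfkp stand clearly higher with ozonated oil, Slc2a3 and Pfkfb3 lower, while Hk1 and Pfkfb4 overlap.

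Among the transporters, Slc2a1 and Slc2a3 differed in opposite directions. Slc2a1 (chromosome 4, 119108745 to 119137330, mm10), which encodes GLUT1, the transporter of basal glucose uptake in most cells, had 163 and 139 CPM in the ozonated oil libraries, against 48.4 and 72.3 CPM in the plain oil libraries. The groups were well apart, with the lower ozonated oil library still above the higher plain oil library. The log2 change was 1.32 (SE 0.24), a fold of 2.49, with an unadjusted p of 0.00151 that ranked 88 among the 12675 tested genes (edgeR adjusted p = 0.217). Slc2a3 (chromosome 6, 122727809 to 122802363) encodes GLUT3, a high-affinity transporter best known from neurons. It had 19.7 and 13.0 CPM with ozonated oil, against 24.1 and 24.0 CPM with plain oil. Both ozonated oil libraries were lower, but they differed from each other by more than library 1 differed from the plain oil libraries. The log2 change was -0.55 (SE 0.26, edgeR adjusted p = 0.566).

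Hk2 showed the largest difference of the 10 genes, and Hk1 showed almost none. Hk2 (chromosome 6, 82725025 to 82774454) encodes a hexokinase that binds mitochondria and is abundant in muscle, fat and many tumours. Its level was 1563 and 873 CPM in the ozonated oil libraries, against 192 and 384 CPM in the plain oil libraries. The groups did not overlap, although the libraries within each group differed widely. The means were 1218 ± 488 CPM with ozonated oil and 288 ± 136 CPM with plain oil (SD, n = 2 each). The log2 change was 2.08 (SE 0.44), a fold of 4.23, with an unadjusted p of 0.00292 (edgeR adjusted p = 0.248). It was 1.57 without ozonated oil library 1 (edgeR adjusted p = 0.0664) and 2.67 without plain oil library 2, where it passed the threshold (edgeR adjusted p = 0.0492).

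Hk1 (chromosome 10, 62268855 to 62379920), the hexokinase of brain and red cells that most tissues share, had 143 and 86.8 CPM with ozonated oil, against 132 and 85.9 CPM with plain oil. Its level was higher in library 1 than in library 2 of both groups, and the groups overlapped. The log2 change of 0.075 (SE 0.31, edgeR adjusted p = 0.963) had no stable sign, being -0.011 with no scaling factors and between -0.36 and 0.42 when each library was left out in turn. Exons of Hk1 overlap an antisense gene, Hk1os, which had between 11 and 23 counts in a library, against 2046 or more for Hk1. Counts of Hk2 were 10.9 and 10.1 times those of Hk1 in the ozonated oil libraries, and 1.45 and 4.47 times in the plain oil libraries. The within-library log2 ratio of Hk2 to Hk1 was 2.04 higher with ozonated oil.

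Gpi1 (chromosome 7, 34201327 to 34230336), the isomerase, encoded by a single gene, was the most abundant of the 10 genes per length. It had 958 and 1203 CPM with ozonated oil, against 636 and 858 CPM with plain oil. The groups did not overlap, but the gap between them was smaller than the spread within either. The log2 change was 0.53 (SE 0.26, edgeR adjusted p = 0.577).

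The 3 phosphofructokinase genes were all higher in value with ozonated oil, by unequal amounts. Pfkl (chromosome 10, 77986947 to 78009807), the liver-type subunit, had 476 and 508 CPM with ozonated oil, against 191 and 274 CPM with plain oil. The ozonated oil libraries lay close together and far above the others. The log2 change was 1.08 (SE 0.24), a fold of 2.12, with an unadjusted p of 0.00381 (edgeR adjusted p = 0.261). Pfkp (chromosome 13, 6579874 to 6649060), the platelet-type subunit, had 215 and 264 CPM with ozonated oil, against 106 and 159 CPM with plain oil. Here too the groups were apart. The log2 change of Pfkp was 0.85 (SE 0.25, unadjusted p of 0.0145, edgeR adjusted p = 0.348).

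Pfkm (chromosome 15, 98092589 to 98132447), the muscle-type subunit, had 77.3 and 71.5 CPM with ozonated oil, against 64.9 and 63.5 CPM with plain oil. The groups were close, and the log2 change was 0.21 (SE 0.16, edgeR adjusted p = 0.757). Some exons of Pfkm overlap Senp1 and some of Pfkp overlap Pitrm1, both on the opposite strand. Whether counting used the strand is not stated in the labels, so reads of these pairs may have been counted together. Senp1 had 2226 and 2063 counts with ozonated oil, against 2183 and 2022 with plain oil. Pitrm1 had 3993 and 4986 counts with ozonated oil, against 4172 and 4679 with plain oil. The counts of both partners overlapped between the groups. Exons of Slc2a1 and Gpi1 also overlap genes on the opposite strand, Gm12868 and Gm26762, and exons of Pfkm overlap Gm26513 on its own strand. No counts were found under these names, and their part in the results was not tested.

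Pfkfb3 and Pfkfb4 encode bifunctional enzymes, each with a kinase and a phosphatase activity towards fructose 2,6-bisphosphate. Pfkfb3 (chromosome 2, 11471430 to 11554071) had 29.2 and 16.6 CPM with ozonated oil, against 42.3 and 35.2 CPM with plain oil. Both ozonated oil libraries were lower, library 2 by more than library 1. The log2 change was -0.76 (SE 0.30), a fold of 0.591, with an unadjusted p of 0.0439 (edgeR adjusted p = 0.501). Without ozonated oil library 1 the change was -1.25, and without ozonated oil library 2 it was -0.42. The change of Pfkfb3 was -0.62 without plain oil library 1 and -0.88 without plain oil library 2. Pfkfb4 (chromosome 9, 108988272 to 109032236) was the least abundant of the 10 genes, with 76 and 125 counts in the ozonated oil libraries, against 63 and 102 counts in the plain oil libraries. As CPM these were 3.33 and 4.46 with ozonated oil, against 2.67 and 4.28 with plain oil, and the groups overlapped. The log2 change of Pfkfb4 was 0.17 (SE 0.40, edgeR adjusted p = 0.934), and it was -0.069 and -0.14 without ozonated oil library 2 and without plain oil library 1.

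Set against each other, Pfkfb3 counts were 8.76 and 3.74 times those of Pfkfb4 with ozonated oil, and 15.8 and 8.23 times with plain oil. Library 2 had the lower ratio in both groups, and the groups overlapped, since ozonated oil library 1 lay above plain oil library 2. The log2 ratio was 2.49 ± 0.86 with ozonated oil and 3.48 ± 0.66 with plain oil (SD), and the difference of -0.99 had an exact two-sided permutation p of 0.667 (n = 2 each). With 2 libraries against 2, this test cannot go below 0.333. In all, 6 such ratios were computed (Pfkfb3 to Pfkfb4, Hk2 to Hk1, Slc2a1 to Slc2a3, and the 3 pairs of phosphofructokinase genes), and the other 5 reached that smallest exact permutation p, which is 0.4 after Benjamini-Hochberg adjustment over the 6.

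**Figure D2:**
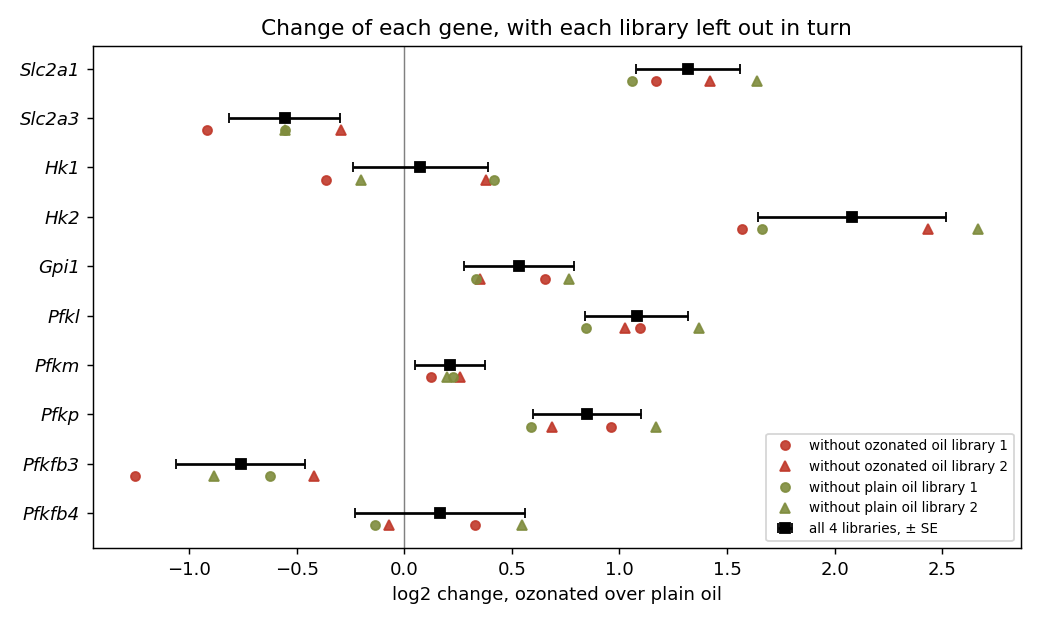
Log2 change of each gene, ozonated over plain oil (horizontal axis), with black squares for all 4 libraries ± SE and coloured marks for the value with 1 library left out. Only Hk1 and Pfkfb4 have marks on both sides of 0, and Hk2 has the widest range above 0, between 1.57 and 2.67.

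To compare the isozymes of a step, counts were divided by the length of the longest transcript with a RefSeq accession. Each is given as a share of the sum of the genes compared, and other hexose transporters are outside the transporter sum. Slc2a1 made up 90.9% and 92.8% of the sum of both transporters with ozonated oil, against 71.0% and 78.6% with plain oil. Hk2 made up 89.4% and 88.6% of the hexokinase sum with ozonated oil, against 53.0% and 77.6% with plain oil. In both steps the more abundant isozyme of the plain oil libraries held a still larger share in both ozonated oil libraries.

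Among the phosphofructokinases, Pfkl held 61.9% and 60.6% with ozonated oil, against 51.5% and 54.9% with plain oil. Pfkm held 13.0% and 11.0% with ozonated oil, against 22.7% and 16.5% with plain oil. Pfkp held 25.1% and 28.3% with ozonated oil, against 25.8% and 28.7% with plain oil, so its share overlapped between groups while those of Pfkl and Pfkm did not. The exact two-sided permutation p was 0.333, the smallest possible, for the shares of Slc2a1, Hk2, Pfkl and Pfkm, and 0.667 for Pfkp.

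Pfkfb2, best known as the heart-type enzyme, held the largest per-length share of the 4 PFKFB genes. Without division by length the order turned in plain oil library 1, where Pfkfb2 had 44.8% and Pfkfb3 50.3% of the counts. The per-length share of Pfkfb2 was 71.7% and 76.9% with ozonated oil, against 55.9% and 66.0% with plain oil. Pfkfb3 held 22.5% and 14.5% with ozonated oil, against 37.3% and 26.5% with plain oil. Neither share overlapped between the groups, and each had an exact two-sided permutation p of 0.333, the smallest possible. These shares make up most of the same sum, so they are not separate results. In the sum of Pfkfb3 and Pfkfb4 alone, the Pfkfb3 share was 86.4% and 73.1% with ozonated oil, against 92.0% and 85.7% with plain oil. There the groups overlapped (exact two-sided permutation p of 0.667). Pfkfb4 held between 3.24% and 5.33% in the 4 libraries.

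**Figure D3:**
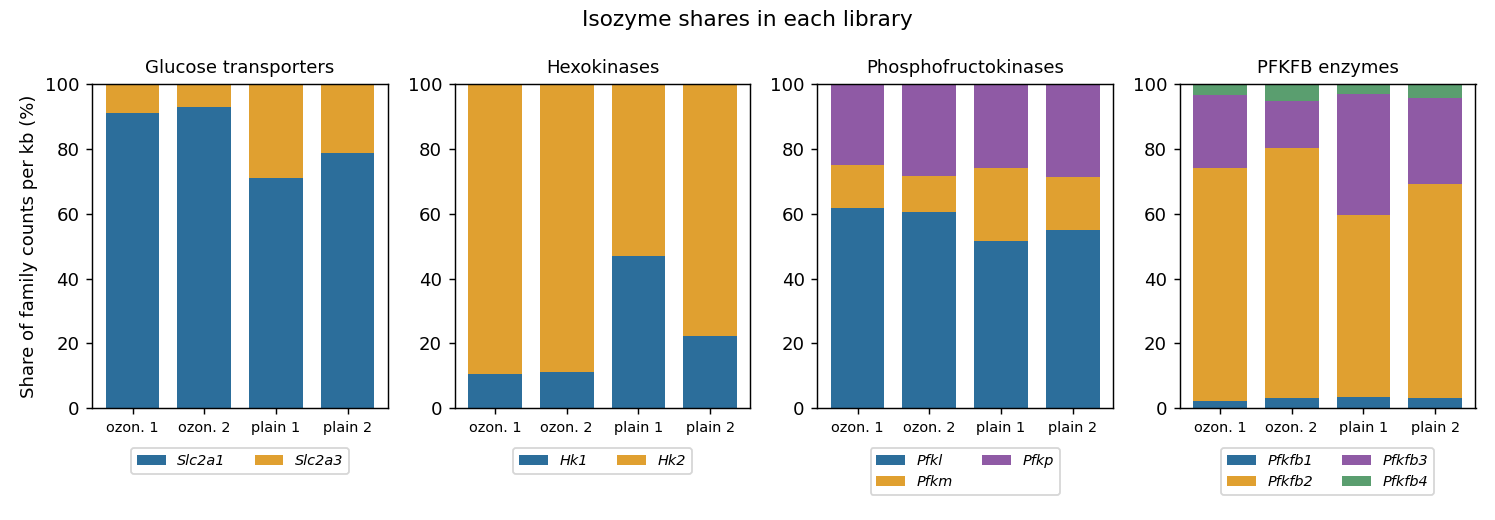
Share of each isozyme in the sum of the genes shown in its panel (vertical axis, percent of counts per kilobase of transcript). The 2 ozonated oil libraries are on the left and the 2 plain oil libraries on the right. In the transporter panel the sum is that of Slc2a1 and Slc2a3 alone. The Slc2a1 and Hk2 shares lie between 88.6% and 92.8% in the ozonated oil libraries and are lower and more variable with plain oil, and Pfkfb2 exceeds Pfkfb3 per length in every library.

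Levels per length also put the steps in order. With ozonated oil, Gpi1 came first at 375 CPM per kilobase, then Hk2 (221), Pfkl (132), Pfkp (57.7) and Slc2a1 (46.2), each with libraries apart from those of the next. Hk1 and Pfkm followed at 26.9 and 25.8 CPM per kilobase and overlapped. Pfkfb3 (4.78) and Slc2a3 (4.14) overlapped as well, above Pfkfb4 (1.12). With plain oil, Gpi1 at 259 CPM per kilobase stood apart, while each gene of the run from Pfkl (62.3) through Hk2 (52.2), Pfkp (32.0), Hk1 (25.5) and Pfkm (22.3) to Slc2a1 (18.5) overlapped with the next in order. Pfkfb3 (8.07), Slc2a3 (6.07) and Pfkfb4 (0.997) then stood apart from each other. Slc2a1 and Hk2 thus stood higher in the order with ozonated oil than with plain oil.

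Since SLC2A1, HK2, PFKFB3 and PFKFB4 are known HIF-induced genes, the sequence upstream of the start site is shown for Slc2a1 and Hk2, which had the largest differences, and for the pair Pfkfb3 and Pfkfb4. The 250 bases before 1 annotated start of each gene are from RefSeq (GRCm38.p6), printed 5′ to 3′ on the gene's strand. Matches to the core letters bound by HIF, ACGTG or GCGTG on either strand, are in capitals. For Pfkfb4 the start used lies inside the gene span given above, and the Pfkfb3 window reaches into the span of its gene.
Slc2a1 (chr4:119108495-119108744, plus strand): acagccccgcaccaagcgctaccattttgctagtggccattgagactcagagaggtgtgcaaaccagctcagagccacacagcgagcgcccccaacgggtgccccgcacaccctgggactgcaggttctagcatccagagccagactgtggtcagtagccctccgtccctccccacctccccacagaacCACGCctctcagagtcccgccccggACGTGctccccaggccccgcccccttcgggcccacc
Hk2 (chr6:82774455-82774704, minus strand): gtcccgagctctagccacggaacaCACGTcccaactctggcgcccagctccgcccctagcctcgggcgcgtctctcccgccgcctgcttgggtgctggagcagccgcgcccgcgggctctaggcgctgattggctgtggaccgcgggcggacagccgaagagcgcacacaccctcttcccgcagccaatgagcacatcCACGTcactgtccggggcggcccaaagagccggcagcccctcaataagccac
Pfkfb3 (chr2:11553930-11554179, minus strand): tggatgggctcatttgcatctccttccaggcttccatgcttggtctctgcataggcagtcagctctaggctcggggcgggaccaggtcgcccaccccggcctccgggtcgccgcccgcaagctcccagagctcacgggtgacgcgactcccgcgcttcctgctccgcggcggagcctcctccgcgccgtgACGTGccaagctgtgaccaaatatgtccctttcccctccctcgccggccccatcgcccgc
Pfkfb4 (chr9:108991652-108991901, plus strand): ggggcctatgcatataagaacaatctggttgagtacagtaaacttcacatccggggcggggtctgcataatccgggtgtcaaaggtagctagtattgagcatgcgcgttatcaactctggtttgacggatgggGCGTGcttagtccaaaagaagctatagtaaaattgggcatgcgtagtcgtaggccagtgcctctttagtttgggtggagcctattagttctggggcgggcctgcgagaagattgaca

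The window of Slc2a1 holds ACGTG at position -36 from the start site and CACGC, which is GCGTG on the other strand, at -61. That of Hk2 holds CACGT, which is ACGTG on the other strand, at -52 and -226. Pfkfb3, which was lower with ozonated oil, holds ACGTG at -60, and Pfkfb4 holds GCGTG at -117. RefSeq windows of 250 bases before to 50 after the start were found for 9 members, all but Slc2a3. At least 1 match was in 7 of these 9 windows, against 64.3% of the windows of tested genes and 43.8% of all 27025 windows of this length. Hk1 and Gpi1 were the 2 members without a match. The letters CACGTG, which contain ACGTG and are known as an E-box bound by MYC and related factors, were in the window of 1 member, Pfkm, against 10.5% of those of tested genes. Such matches describe letters in these windows and do not show binding. Members with further annotated starts, such as Pfkfb3 and Pfkm, were searched at 1 start alone. The 250 bases before the start used lay wholly inside the gene span given above for Pfkfb4 and Pfkp, and partly for Pfkfb3 and Hk1.

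By distance between log2 levels in the 4 libraries, each centred on the plain oil mean, the 3 genes nearest to Hk2 among 9998 were Jun, P4ha2 and Sap30, at distances of 0.54, 0.88 and 0.92 log2 units. These encode a subunit of AP-1, a collagen prolyl hydroxylase subunit and a component of the SIN3 corepressor. All 3 were more alike between the ozonated oil libraries than Hk2 was, such as Jun with 160 and 140 CPM, against 29.7 and 45.7 CPM with plain oil. The genes nearest to Pfkfb3 were Zfp462, Gart, a purine synthesis enzyme, and Pprc1, a coactivator of mitochondrial genes, at distances of 0.053, 0.076 and 0.096 log2 units. Gart had 123 and 70.8 CPM with ozonated oil, against 188 and 151 CPM with plain oil, and so repeated the pattern of Pfkfb3 at a higher level. With 4 libraries, close profiles are a description and carry no test.

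In the list of branches from hexose phosphates, 20 of 21 genes were tested and 0 passed edgeR's adjusted threshold. At an unadjusted p under 0.05 there were 5 higher with ozonated oil and 0 lower, against 4.54% and 5.29% of all tested genes, and the median log2 change was 0.25. Gys1, glycogen synthase of muscle and most tissues, had 111 and 81.5 CPM with ozonated oil, against 39.1 and 48.1 CPM with plain oil, a log2 change of 1.14 (SE 0.22, edgeR adjusted p = 0.223). Gbe1, the glycogen branching enzyme, had 142 and 135 CPM with ozonated oil, against 80.9 and 86.1 CPM with plain oil. The phosphoglucomutase gene Pgm1 had 314 and 348 CPM with ozonated oil, against 148 and 200 CPM with plain oil. Ugp2, which makes the UDP-glucose that glycogen synthase uses, and Pygl, a glycogen phosphorylase, were the other two, named after their values were seen, at folds of 1.70 and 1.91. Over the 20 tested genes of the list, 8 were higher and 2 lower with no overlap between the groups, against 19.9% and 20.0% of all tested genes. These 5 genes, picked by their p, were among the 8. Other genes of glycogen and its precursors in the same list, also named after their values were seen, were closer to 0. The phosphorylases Pygb and Pygm had log2 changes of -0.16 (SE 0.22) and 0.32 (SE 0.55), and Pgm2 had 0.057 (SE 0.18).

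Other genes act beside the 10 members at the same steps. Of 12 other hexose transporters 5 were tested, and 0 passed edgeR's adjusted threshold. At an unadjusted p under 0.05 Slc2a8, an intracellular transporter, was the 1 higher of these 5, against 4.54% of all tested genes, with 12.8 and 13.7 CPM with ozonated oil, against 9.45 and 8.02 CPM with plain oil, and 0 were lower, against 5.29%. Slc2a5, a fructose transporter, had 43.7 and 39.2 CPM with ozonated oil, against 33.3 and 28.5 CPM with plain oil. The sodium-coupled transporter Slc5a1 had 1.27 and 0.570 CPM with ozonated oil, against 2.75 and 1.51 CPM with plain oil, a log2 change of -1.22 (SE 0.60, edgeR adjusted p = 0.589). Hkdc1 and Hk3, members of the hexokinase family, had at most 7 counts in a library and were not tested.

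Adpgk, which phosphorylates glucose with ADP, had 55.5 and 45.2 CPM with ozonated oil, against 58.4 and 60.8 CPM with plain oil. G6pc3, which removes the phosphate from glucose 6-phosphate, had a log2 change of 0.074 (SE 0.20). These were the 2 tested genes of other glucose phosphorylation and its reversal, and 0 were past the threshold at an adjusted or an unadjusted p under 0.05 in edgeR. The same held for the 4 tested genes of other fructose bisphosphate control. Pfkfb2 had 55.3 and 52.5 CPM with ozonated oil, against 37.6 and 52.2 CPM with plain oil (log2 change 0.26, SE 0.21). Tigar, which breaks down fructose 2,6-bisphosphate, had 74.8 and 59.0 CPM with ozonated oil, against 74.5 and 81.8 CPM with plain oil. The libraries of Tigar overlapped, and those of Pfkfb2 nearly met. Fbp1 and Pfkfb1, with at most 38 counts in a library, had log2 changes of -1.42 (SE 0.83) and -0.31 (SE 0.46).

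Lower glycolysis had 12 tested genes of 14, with a median log2 change of 0.60, and in edgeR 0 passed the adjusted threshold. At an unadjusted p under 0.05 there were 3 higher (Eno2, Pgam1 and Aldoc), against 4.54% of all tested genes, and 0 lower, against 5.29%. In 8 genes the values were higher with ozonated oil with no overlap between groups, against 19.9%. Eno2, the neuronal-type enolase, had 14.1 and 14.2 CPM with ozonated oil, against 3.39 and 2.27 CPM with plain oil. Pgam1, a phosphoglycerate mutase, had 678 and 581 CPM with ozonated oil, against 397 and 425 CPM with plain oil. Reads of Pgam1 are hard to separate from those of its pseudogenes. Aldoc, an aldolase, was at a fold of 1.38.

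Among 12 tested genes of 13 that regulate these steps, 0 passed edgeR's adjusted threshold, and at an unadjusted p under 0.05 there were 3 higher, against 4.54% of all tested genes, and 1 lower, against 5.29%. Egln1 and Egln3, the oxygen-sensing hydroxylases that mark HIF for degradation and are themselves known HIF-induced genes, were at folds of 2.42 and 2.53. Egln1 had 341 and 328 CPM with ozonated oil, against 115 and 162 CPM with plain oil. Arnt, the partner subunit of HIF, was named after its value was seen and was at a fold of 1.39. Others of the list, also named after their values were seen, were Hif1a at a fold of 1.29, Vhl at 1.27, Epas1 at 1.08 and Egln2 at 1.05. The groups of Vhl, Epas1 and Egln2 overlapped. Myc, a transcription factor known to induce glycolytic genes, was lower, with 9.47 and 15.8 CPM with ozonated oil, against 83.9 and 81.5 CPM with plain oil. Txnip, which restrains glucose uptake by GLUT1, had 98.5 and 175 CPM with ozonated oil, against 63.6 and 104 CPM with plain oil. Its groups overlapped (log2 change 0.71, SE 0.35, edgeR adjusted p = 0.591), and library 2 was the higher one in both.

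**Figure D4:**
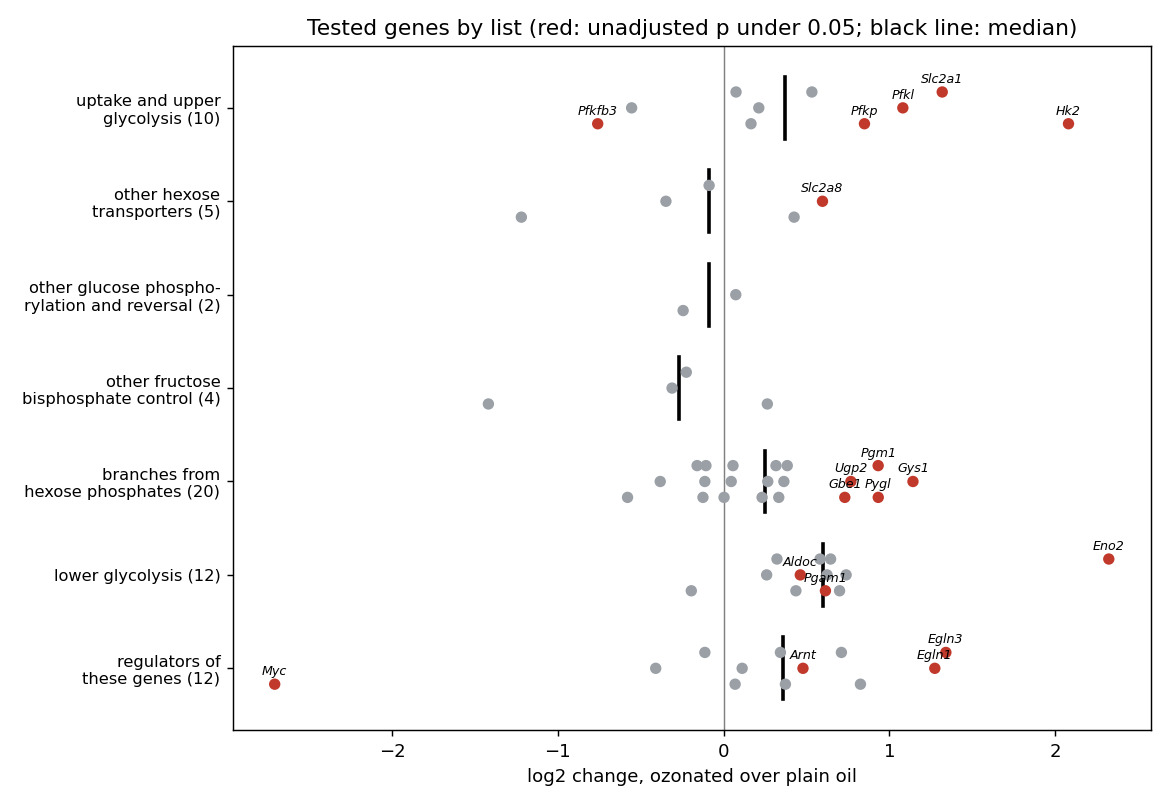
Log2 change of every tested gene, ozonated over plain oil (horizontal axis), by list with the number tested; red points have an unadjusted edgeR p under 0.05 and black lines are list medians. The 10 uptake and upper glycolysis genes reach from -0.76 for Pfkfb3 to 2.08 for Hk2, and all 5 red points of the hexose phosphate branches lie above 0.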

How the data were processed

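The authors deposited raw read counts (whole numbers) for each gene, with 1 column for each of the 4 libraries. The submitters' processing notes name HISAT2 2.1.0, StringTie 1.3.4d, SAMtools 1.9, edgeR, FastQC 0.11.7, bcl2fastq and bedtools 2.27.1, with build mm10. Per the labels' protocols a directional library kit was used. The read counter, its annotation, its strand setting and its treatment of reads matching several places are not given in the labels or notes, so genes with near-identical copies or overlapping partners are uncertain. Genes without a symbol (1319) held 0.197% to 0.218% of counts.

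In R 4.3.3, edgeR 4.0.16 with filterByExpr left 12675 genes, all 10 members included. Libraries were TMM-scaled and groups compared by the quasi-likelihood test with group as the only term; the SE comes from the F statistic. The biological coefficient of variation was 0.230. The script was tested on simulated data. Alternatives were DESeq2 1.42.0, other scalings and filters, the replicate number as a block, and each library left out. Within-library log2 ratios used a prior count of 2. Positions are RefSeq (GRCm38.p6, the assembly behind mm10), and transcript lengths are from GENCODE M21.

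The members and lists were chosen with earlier results of these data known. All 10 members are named. From each other list the 3 genes with the smallest p were named, with Txnip, Tigar and Pfkfb2, and for Hk2 and Pfkfb3 the 3 nearest genes with a mean of at least 5 CPM. Some listed genes are not reported here. The libraries of a group differed by more than counting noise (chi-square per degree of freedom 120 for ozonated oil and 37.0 for plain oil), so none were merged.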

Additional observations from a re-analysis of the deposited data

How the results depend on the processing

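The number of calls changed with the test, the filter and the libraries used. In edgeR 0 genes passed, against 4 with no low-count filter and 271 with DESeq2, which called 3 members: Hk2 (log2 change 2.08, adjusted p = 2.91e-05), Slc2a1 (1.31, adjusted p = 0.000555) and Pfkl (1.07, adjusted p = 0.00383). With each library left out in turn the edgeR calls ranged from 1 to 389 genes and from 0 to 1 member, the member being Pfkfb3 without ozonated oil library 1 and Hk2 without plain oil library 2. The lone library of a group was then assumed to vary like the other group. Both member calls came from the omissions that called the most genes over all tested genes. They describe those settings, and no conclusion about Pfkfb3 or Hk2 is drawn from them.

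Libraries of the same number share only a number in the labels, and there are 2 pairs. Their deviations from the group means correlated at 0.556 over genes. With the replicate number as a block, edgeR called 1160 of 12675 tested genes and 5 of the 10 members. These members were Hk2 (log2 change 2.10), Slc2a1 (1.34), Pfkl (1.10), Pfkp (0.87) and Pfkfb3 (-0.80).

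Over single libraries left out, the log2 change ranged from 1.06 to 1.64 for Slc2a1, -0.92 to -0.29 for Slc2a3, -0.36 to 0.42 for Hk1, 1.57 to 2.67 for Hk2, 0.33 to 0.77 for Gpi1, 0.84 to 1.37 for Pfkl, 0.12 to 0.26 for Pfkm, 0.59 to 1.17 for Pfkp, -1.25 to -0.42 for Pfkfb3 and -0.14 to 0.55 for Pfkfb4. Hk1 turned to -0.36, -0.20 and, with no scaling factors, -0.011, and Pfkfb4 to -0.069 and -0.14. The median of the members ranged from 0.37 to 0.66, and the difference in the Pfkfb3 to Pfkfb4 log2 ratio from -1.59 to -0.38. The difference in the Pfkp share ranged from -2.14 to 1.09 percentage points. The causes were not tested. Pfkfb4 had the lowest counts of the members, at 63 to 125 in a library, and the part of depth in its change was not tested. Of 100 member changes recomputed over 10 settings, 85 kept both their direction and their side of the threshold.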
